A study of Mus musculus with 40 samples.

Results

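The Hox genes encode homeodomain transcription factors that give cells their position along the body axis. They lie in 4 clusters, Hoxa to Hoxd, in which the position number of a gene follows its order on the chromosome, low numbers acting towards the head and high numbers towards the tail and the tips of the limbs. Members are taken here as every gene of the deposited expression table whose symbol is Hox, a cluster letter and a position number, which gave 39 of 22552 genes: 11 of cluster Hoxa, 10 of Hoxb, 9 of Hoxc and 9 of Hoxd. Hox clusters are the best known targets of the Polycomb repressors. Polycomb repressive complex 2 (PRC2) places methyl groups on lysine 27 of histone H3 through either of the related enzymes EZH1 and EZH2, PRC1 reads that mark and compacts the chromatin, and trithorax proteins act in the opposite direction. In the mammary gland, Hox genes are known from the stroma and the fat pad as well as from the epithelium.

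The study measured RNA of whole mouse mammary tissue by poly(A) RNA-seq, in 31 libraries that fall into 12 groups of 2 or 3 libraries. The table holds 1 value per gene and group, as fragments scaled to transcript length and library size (FPKM). It is taken to combine the libraries of the group, which is inferred from the column names and not stated. So none of the differences below has a replicate check and no test is given. The depth behind a value is unknown. All mice came from an outbred stock. Control mice carried the MMTV-Cre transgene (line A), which is active mainly in mammary epithelium. Ezh2 knockout mice were Ezh2f/f with that same transgene, so the deletion was mammary-specific and other cells of the gland kept the gene. Ezh1 knockout mice were E1-/-, without the gene in every cell. The double mutants were E1+/-;E2f/f with the control transgene, having 1 copy of Ezh1 and the mammary deletion of Ezh2. Tissue came from 12-week-old virgin females in estrus, control and Ezh2 knockout, and from all 4 genotypes at day 13 (p13) and day 18 (p18) of pregnancy. In the virgin females, 1 fat pad was removed under avertin anaesthesia, the mice received prolactin at 5 µg per g of body weight, and the opposite pad was taken 2 h later. Surgery, anaesthesia and elapsed time therefore go with the hormone and cannot be told apart from it.

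The labels were checked on the targeted genes. Ezh1 stood at 1.06 FPKM at p13 and 0.627 at p18 in Ezh1 knockout tissue, against 14.7 and 7.37 in controls. Ezh2 stood at 13.7 FPKM in p13 Ezh2 knockout and 12.9 in p13 control tissue, and at 6.41 against 10.0 at p18, so the level of Ezh2 RNA does not check the Ezh2 knockout label. Whole tissue mixes cell types, and less RNA of a gene in it can come from fewer cells of a type or from less RNA per cell; these cannot be told apart. The summed FPKM of 13 adipocyte markers ran from 6952 in p18 control to 78614 in prolactin-treated Ezh2 knockout tissue, and that of 10 fibroblast markers from 743 to 3305. No marker of either list was at 0 in any group. The Hox levels are set beside these sums where they move together.

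Promoter sequence is shown for 4 genes because cytosine-guanine pairs (CpG) are among the features by which Polycomb complexes are recruited in mammals. Of these genes, 2 are expressed and 2 stay near 0 within the same 2 clusters. RefSeq windows on GRCm38.p6 were matched for 22 of the 39 Hox genes, in 24 windows. Each line gives the 250 bases before a transcription start, 5′ to 3′ on the strand of the gene, with every CpG in capitals. The Hoxd8 window lies at chr2:74704365-74704614 on the plus strand, and that of Hoxd13 at chr2:74667975-74668224 on the plus strand. Hoxa10 has 2 starts, with windows at chr6:52234940-52235189 (start 1) and chr6:52240855-52241104 (start 2), and the Hoxa13 window lies at chr6:52260881-52261130, these 3 on the minus strand.
Hoxd8: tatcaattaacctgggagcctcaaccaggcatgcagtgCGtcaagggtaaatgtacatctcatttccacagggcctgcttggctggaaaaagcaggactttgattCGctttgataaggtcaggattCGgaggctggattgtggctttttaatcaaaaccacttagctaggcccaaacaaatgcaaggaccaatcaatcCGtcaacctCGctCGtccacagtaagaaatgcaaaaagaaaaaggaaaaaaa
Hoxa10 start 1: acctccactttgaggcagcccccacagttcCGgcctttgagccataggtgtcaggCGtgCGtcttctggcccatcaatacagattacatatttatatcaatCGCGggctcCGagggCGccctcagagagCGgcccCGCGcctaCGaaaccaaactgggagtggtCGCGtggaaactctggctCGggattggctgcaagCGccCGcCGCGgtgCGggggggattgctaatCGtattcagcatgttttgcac
Hoxa10 start 2: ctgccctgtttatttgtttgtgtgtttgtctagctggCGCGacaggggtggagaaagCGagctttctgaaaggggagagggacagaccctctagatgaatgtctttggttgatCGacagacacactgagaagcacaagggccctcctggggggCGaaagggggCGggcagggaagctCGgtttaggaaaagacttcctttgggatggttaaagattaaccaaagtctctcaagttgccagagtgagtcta
Hoxd13: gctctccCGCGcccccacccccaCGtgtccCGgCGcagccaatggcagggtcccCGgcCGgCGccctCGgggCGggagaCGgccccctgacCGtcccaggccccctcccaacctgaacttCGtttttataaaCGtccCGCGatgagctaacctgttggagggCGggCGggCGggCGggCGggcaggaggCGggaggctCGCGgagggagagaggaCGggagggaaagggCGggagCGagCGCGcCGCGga
Hoxa13: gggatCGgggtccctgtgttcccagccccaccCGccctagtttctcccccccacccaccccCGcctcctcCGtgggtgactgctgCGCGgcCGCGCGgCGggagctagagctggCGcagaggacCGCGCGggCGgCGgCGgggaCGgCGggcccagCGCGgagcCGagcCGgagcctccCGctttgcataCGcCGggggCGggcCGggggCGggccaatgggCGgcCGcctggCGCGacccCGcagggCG
The windows of Hoxa13 and Hoxd13, neither of which exceeded 0.0154 FPKM in any group, held 35 and 31 CpG. The window of Hoxd8, which reached 11.9 FPKM, held 6, and those of Hoxa10, which reached 10.1 FPKM, held 20 and 7. Over the 24 Hox windows the median was 12.5 CpG, against 6 over all 32851 windows of the same length. The motif counted was CG, which reads the same on both strands. The median was 12.5 both for the 14 windows of Hox genes that reached 1 FPKM and for the 10 windows of those that did not. Hoxa13 and Hoxd13 had the highest counts of the 24 windows. Among the other genes below 1 FPKM, the windows of Hoxd11 held 2 and 20 and that of Hoxa2 held 6. The window of Hoxa5, which reached 1.99 FPKM, held 28. No window was matched for Hoxc5, Hoxc6, Hoxc8, Hoxc9 or Hoxc10. A ratio of observed to expected CpG of 0.6 or more was found in 54.2% of Hox windows and in 34.0% of all windows. The count is a description of the letters and says nothing of whether a complex was bound.

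Expression ended sharply between positions 10 and 11. Of the 39 members, 25 (64.1%) reached 1 FPKM in at least 1 group, against 63.3% of all genes in the table and 18 of 60 developmental transcription factors outside the clusters. The 9 genes of positions 11 to 13, which pattern the distal limb, the genital tract and the tail, stayed at or below 0.122 FPKM in every group, and 69 of their 108 values were listed at 0. At position 10, Hoxa10 reached 10.1, Hoxc10 18.5 and Hoxd10 2.70 FPKM, while their neighbours at position 11, Hoxa11, Hoxc11 and Hoxd11, had highest values of 0.0259, 0.122 and 0.00941. At the other end, Hoxb1 and Hoxd1 had highest values of 0.0456 and 0.109. Of positions 4 to 10, each member reached 1 FPKM, 22 genes in all. The level of 1 FPKM separates neighbouring values: Hoxa6, Hoxb9 and Hoxd4 lay just above it at 1.02, 1.03 and 1.28, and Hoxa2 and Hoxd3 below it at 0.697 and 0.464. The 14 members below it were spread over the clusters as 4, 2, 3 and 5 of Hoxa, Hoxb, Hoxc and Hoxd.

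**Figure D1:**
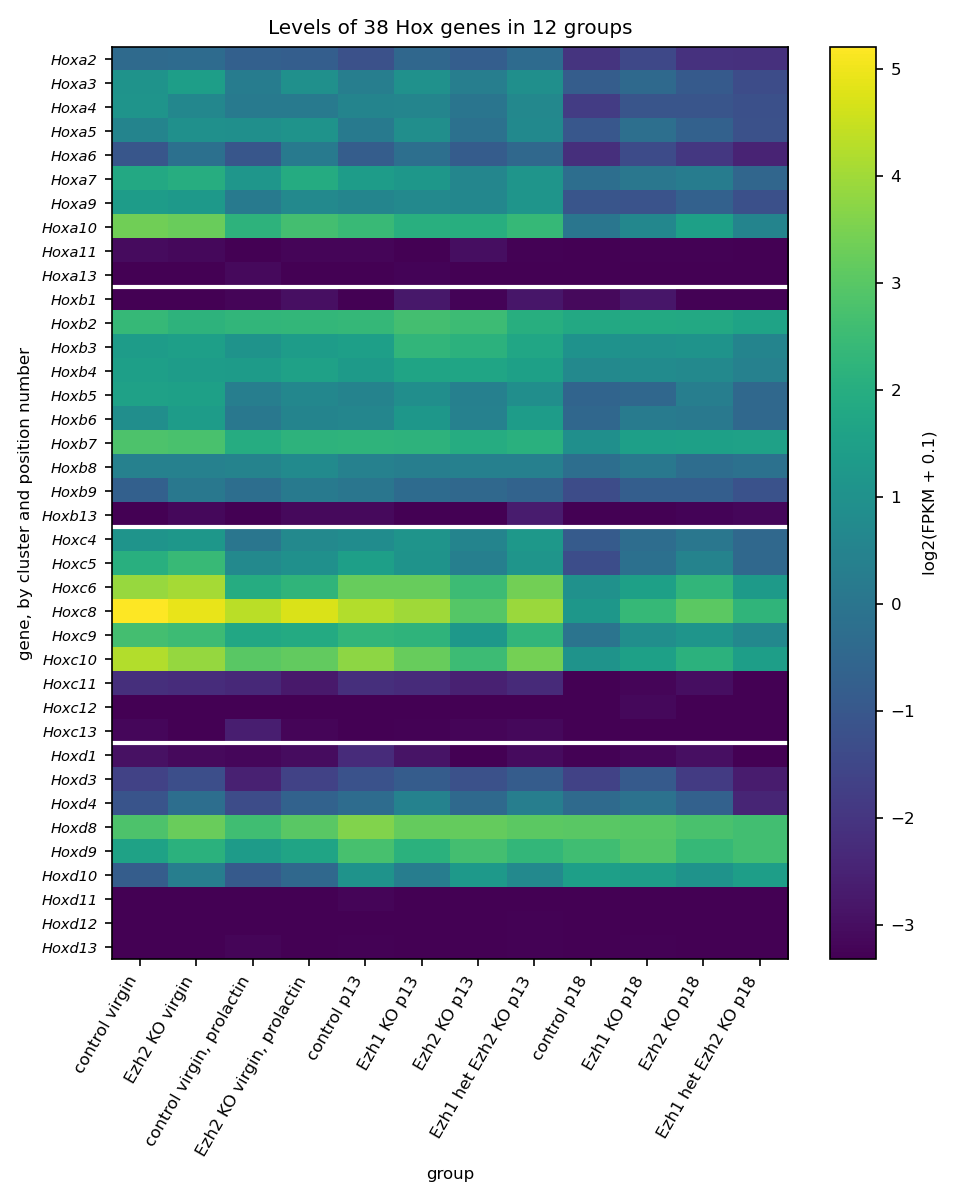
Heat map of 38 Hox genes (rows, by cluster and position number) in the 12 groups (columns), coloured by log2(FPKM + 0.1) of the authors' value for the group. Positions 11 to 13 are at or below 0.122 FPKM in all columns, and Hoxc8 is the highest row in 8 of the 12 columns.

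Hoxc8 was the most abundant Hox gene in 8 of the 12 groups, Hoxd8 in 3 and Hoxd9 in 1. Hoxc8, which patterns the thorax, stood at 36.8 FPKM in virgin control and 30.5 in virgin Ezh2 knockout tissue, and at 19.8 and 26.5 after prolactin. At p13 it stood at 18.8 in control, 15.9 in Ezh1 knockout, 15.2 in double mutant and 7.66 in Ezh2 knockout tissue. At p18 it stood at 2.20 in control, 5.13 in Ezh1 knockout, 4.69 in double mutant and 8.27 in Ezh2 knockout tissue. It was lower at p18 than at p13 in 3 genotypes and about level in the Ezh2 knockout, and the Ezh2 knockout was the lowest genotype at p13 and the highest at p18.

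Hoxc10, a position-10 gene of the lumbar region and hindlimb, stood at 18.5 FPKM in virgin control and 14.5 in virgin Ezh2 knockout tissue, and at 7.97 and 8.73 after prolactin. At p13 its values were 13.4 in control, 9.14 in Ezh1 knockout, 10.6 in double mutant and 5.63 in Ezh2 knockout tissue, and at p18 1.96, 2.75, 2.67 and 4.41 in the same order. The order of the genotypes was thus that of Hoxc8 at the ends: Ezh2 knockout lowest at p13, and at p18 control lowest and Ezh2 knockout highest. Hoxc6 stood at 14.7 FPKM in virgin control and 16.5 in virgin Ezh2 knockout tissue, and at 3.79 and 4.73 after prolactin. Its p13 values were 9.20 in control, 9.35 in Ezh1 knockout, 10.5 in double mutant and 5.64 in Ezh2 knockout tissue, and its p18 values 1.89, 2.75, 2.40 and 4.78. Hoxc6 was the member with the largest difference after prolactin in control tissue.

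Hoxc9 stood at 6.28 FPKM in virgin control and 5.63 in virgin Ezh2 knockout tissue, and at 3.39 and 3.64 after prolactin. At p13 it stood at 4.81 in control, 4.61 in Ezh1 knockout, 4.79 in double mutant and 2.22 in Ezh2 knockout tissue, and at p18 at 0.873, 1.74, 1.47 and 2.06. Hoxc9 differed little among 3 genotypes at p13 and was lower in the Ezh2 knockout alone. Hoxc5 stood at 4.09 and 5.22 FPKM in virgin control and Ezh2 knockout tissue, at 1.5 and 1.87 after prolactin, at 2.71, 1.98, 2.10 and 1.18 at p13 and at 0.307, 0.783, 0.641 and 1.32 at p18, the pregnant genotypes in the order control, Ezh1 knockout, double mutant and Ezh2 knockout. Hoxc4 completes the expressed genes of this cluster, with a range of 0.448 to 2.22.

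Cluster Hoxd did not follow cluster Hoxc. Hoxd8 stood at 7.04 FPKM in virgin control and 9.45 in virgin Ezh2 knockout tissue, at 5.91 and 8.07 after prolactin, at 11.9, 8.93, 8.26 and 9.11 at p13 and at 8.06, 7.75, 6.12 and 6.60 at p18, in the same order of genotypes. The highest of its 12 values was 2.01 times the lowest. Hoxd9 stood at 2.92 and 4.30 in virgin tissue, at 2.46 and 3.06 after prolactin, at 6.47, 4.30, 4.87 and 6.24 at p13 and at 5.93, 7.39, 6.13 and 5.09 at p18, so that each of the 8 pregnant groups was above each virgin group, if barely so for the 2 values of 4.30. Hoxd10, with a range of 0.439 to 2.70, was lowest in virgin control tissue, at 0.473 and, after prolactin, 0.439. Virgin Ezh2 knockout tissue, at 1.14, lay level with p13 Ezh1 knockout tissue, at 1.12. Its p18 values were 2.70, 2.61, 2.65 and 1.99. Hoxd4 and Hoxd3 reached 1.28 and 0.464. The gene models of Hoxd10 and Hoxd11 overlap, as do Hoxd3 and Hoxd4, Hoxb3 and Hoxb4, and Hoxa3 with Hoxa4, Hoxa5 and Hoxa6, and the strand setting of the counting is not stated in the sources used, so reads of these pairs may not be fully told apart.

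Among the genes of cluster Hoxa, Hoxa10, whose product is best known from the uterus, had the highest levels. It stood at 10.1 and 9.39 FPKM in virgin control and Ezh2 knockout tissue, at 4.42 and 6.21 after prolactin, at 5.33, 4.02, 5.13 and 3.98 at p13 and at 0.911, 1.46, 1.34 and 2.79 at p18. All 4 genotypes were lower at p18 than at p13. The 4 other Hoxa genes with a mean of 1 FPKM or more were Hoxa3 (0.294 to 2.64), Hoxa5 (0.332 to 1.99), Hoxa7 (0.596 to 3.88) and Hoxa9 (0.322 to 2.50). Hoxa5 is known from lung and mammary development, and Hoxa9 from blood stem cells.

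Over the 10 groups without prolactin the Hoxb sum spanned 2.24-fold, against 6.84-fold for the Hoxa sum. Hoxb7 stood at 6.92 and 6.64 FPKM in virgin control and Ezh2 knockout tissue, at 3.76 and 4.48 after prolactin, at 4.55, 4.51, 4.16 and 3.79 at p13 and at 1.80, 2.70, 2.83 and 2.79 at p18. Hoxb2, which patterns the hindbrain, stood at 5.14 and 4.45, at 4.81 and 4.87 after prolactin, at 5.05, 6.16, 4.00 and 5.65 at p13 and at 3.45, 3.49, 3.0 and 3.42 at p18. The range of Hoxb2 was 2.05-fold, close to that of Hoxd8. Hoxb3 (1.34 to 4.75), Hoxb4 (1.26 to 3.12), Hoxb5 (0.57 to 2.82), Hoxb6 (0.628 to 2.53) and Hoxb8 (0.726 to 1.61) were measured at lower levels.

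The make-up of the Hox RNA in control tissue thus moved from cluster Hoxc to clusters Hoxd and Hoxb over pregnancy. In control tissue the members summed to 140.4 FPKM in virgin, 105.9 in p13 and 39.7 in p18 glands. Cluster Hoxc held 58.8%, 47.9% and 19.3% of these sums, cluster Hoxd 7.87%, 20.3% and 44.3%, and cluster Hoxb 16.8%, 18.5% and 27.6%. The Hoxd sum itself was 11.1, 21.5 and 17.6 FPKM, so its share rose from p13 to p18 while its level fell. In the Ezh2 knockout cluster Hoxc held 54.1%, 31.9% and 39.2%, and cluster Hoxd 11.6%, 25.0% and 26.0%. At p18, cluster Hoxd held 37.2% in the Ezh1 knockout and 35.8% in the double mutant. A ratio of 2 genes within a group is untouched by any scaling of that group. The ratio of Hoxc8 to Hoxd8 in control tissue was 5.23 in virgin, 1.58 at p13 and 0.273 at p18, and that of Hoxc10 to Hoxd10 was 38.99, 6.82 and 0.726. In the Ezh2 knockout the ratio of Hoxc8 to Hoxd8 was 3.22, 0.841 and 1.25.

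**Figure D2:**
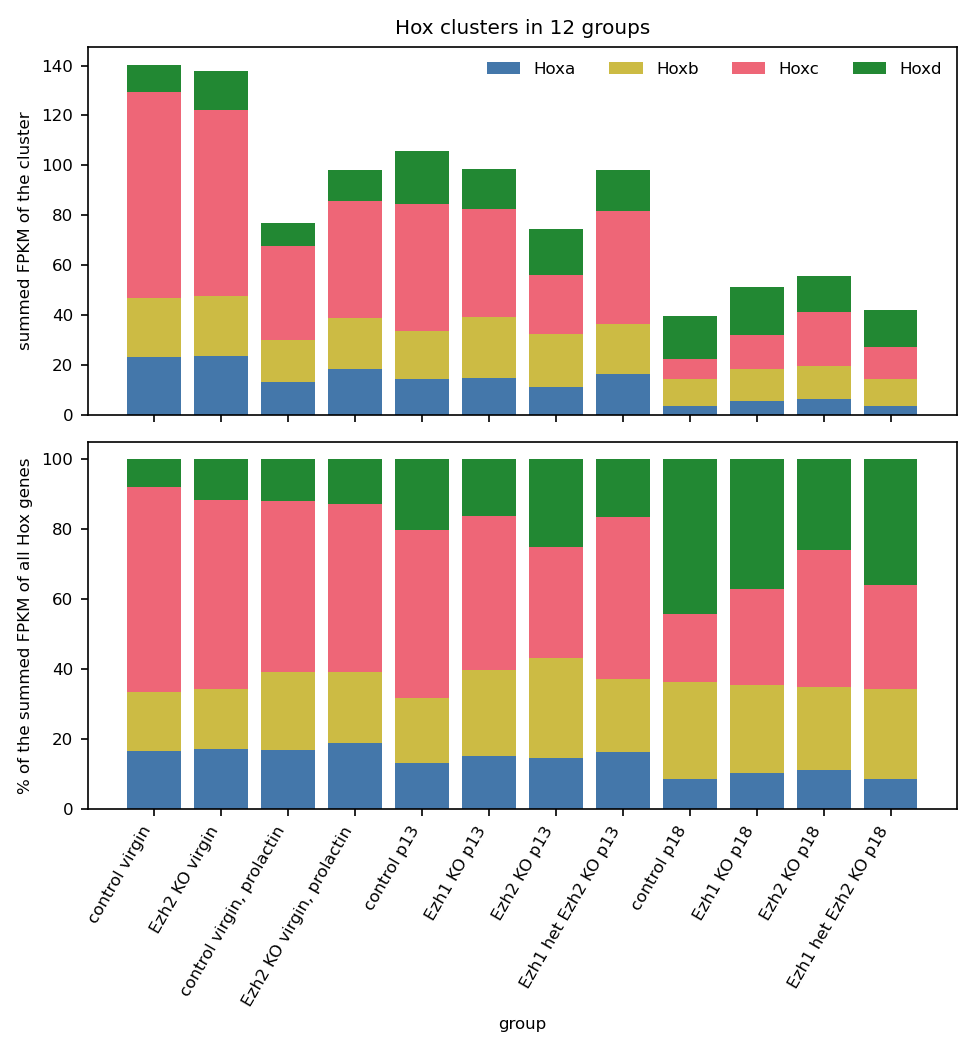
Stacked bars of the summed FPKM of each Hox cluster in the 12 groups, and of the percent of the Hox sum that each cluster holds. In control tissue cluster Hoxc goes from 58.8% of the sum in virgin to 19.3% in p18 glands and cluster Hoxd from 7.87% to 44.3%.

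In the groups without prolactin the level of cluster Hoxc moved with the adipocyte markers, and after prolactin it did not. After prolactin the Hoxc sum was 2.20-fold lower in control and 1.59-fold lower in Ezh2 knockout tissue. The adipocyte marker sum was then 1.09- and 1.62-fold higher. Over the 10 groups without prolactin the Hoxc sum spanned 10.7-fold, from 7.68 to 82.5 FPKM. Per 1000 FPKM of the 13 adipocyte markers it lay between 1.07 and 1.69, a 1.57-fold spread. Per 1000 FPKM of the 10 fibroblast markers the spread was 4.02-fold, and per 1000 FPKM of the 12 luminal epithelial markers 24.3-fold. In the 2 prolactin groups the value per adipocyte marker sum was 0.531 in control and 0.598 in Ezh2 knockout tissue, below each of the other 10 groups. Taken against each of the 13 adipocyte genes on its own, the spread of the Hoxc sum over the 10 groups lay between 1.51- and 3.35-fold, with a median of 2.21, and both prolactin groups lay below the other groups for 12 of the 13. The Hoxa sum did likewise to a lesser degree: its 6.84-fold span became 2.23-fold per adipocyte marker sum, from 0.306 to 0.681. The prolactin groups lay below that at 0.183 and 0.234. Per 1000 FPKM of fibroblast markers the Hoxa span was nearly as small, 2.67-fold, from 3.54 to 9.45. There the prolactin groups lay within the span, at 6.82 and 7.90, so the adipocyte markers were not alone for Hoxa. The Hoxd sum, which spanned 1.95-fold over the 10 groups, spanned 14.9-fold per adipocyte marker sum. These ratios were computed after the values had been seen, and the part of the adipocyte content in the differences below was not tested.

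The step from p13 to p18 held the largest Hox differences of the control series. Differences are given on the scale of log2(FPKM + 0.1), first group minus second, a pseudocount that understates the change of low genes, and are called at 1 or more in size. They were taken over the 13104 genes with a mean of 1 FPKM or more over the 12 groups, which include 21 of the 39 members. Hoxa4 lay just outside at a mean of 0.994 and Hoxb8 just inside at 1.12. Genes that are low in every group but 1 can fail this mean, so that counts over the 21 members say nothing of the other 18. In control tissue 14 of the 21 members were lower at p18 and 0 were higher. Of all 13104 genes, 26.1% were lower and 4.40% higher. The median was -1.18 for the Hox genes and -0.54 for all genes. All 6 Hoxc genes and all 5 Hoxa genes were among the 14, with 3 of 7 Hoxb and 0 of 3 Hoxd genes. Hoxc8 was 3.04 lower (8.56-fold in FPKM), Hoxc5 2.79 lower (8.83-fold), Hoxc10 2.71 lower and Hoxa10 2.43 lower, whereas Hoxd10 was 0.44 higher. The FPKM of 14 milk protein genes summed to 14390 at p13 and 470644 at p18 in control tissue, and the median over all genes moved up by 0.50 when the groups were brought to a common upper quartile. With that scaling 9 members were lower and 0 higher, and the median was -0.75 for the Hox genes and -0.05 for all genes. The share of all genes called at that scaling is not given.

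The same step was measured in 3 more genotypes that share no library with the control pair. In the Ezh1 knockout 13 of 21 members were lower (20.9% of all genes) and 1, Hoxd10, was higher by 1.15 (1.91% of all genes). In the double mutant 15 were lower (26.9% of all genes) and 0 higher (1.88%). In the Ezh2 knockout 3 were lower (10.7% of all genes) and 0 higher (1.31%): Hoxa3 by -1.21, Hoxa9 by -1.30 and Hoxb3 by -1.10. The Hox medians were -1.23, -1.64 and -0.43, and those of all genes -0.57, -0.60 and -0.55. In the values as deposited, the share of members lower was thus above the background in 3 genotypes and nearer to it in the Ezh2 knockout. Lower levels at p18 were not particular to Hox genes. Of the developmental transcription factors outside the clusters, 13 had a mean of 1 FPKM or more. Lower at p18 were 8 of these in control, 9 in Ezh1 knockout, 9 in double mutant and 7 in Ezh2 knockout tissue. Their medians were -1.74, -1.36, -1.47 and -1.11, and 1 was higher in control and 0 in each mutant. In the Ezh2 knockout all 6 Hoxc genes were short of the threshold and Hoxc8 went from 7.66 to 8.27 FPKM. Hoxa3 and Hoxa9 were lower past the threshold in all 4 genotypes. Hoxb2, Hoxb8, Hoxd8, Hoxd9 and Hoxd10 were lower past it in none. With the groups at a common upper quartile 5 members were lower in the Ezh1 knockout, 12 in the double mutant and 0 in the Ezh2 knockout. The counts of higher members were 2, 1 and 0. The Hox medians were then -0.82, -1.27 and 0.04, and those of all genes -0.12, -0.22 and -0.08. The shares of all genes called at that scaling are not given, so these counts have no background here. The adipocyte marker sum was 2.03-fold lower at p18 in the Ezh1 knockout, 2.48-fold lower in the double mutant and 1.06-fold higher in the Ezh2 knockout. The fibroblast marker sum was 4.45-, 3.15- and 2.25-fold lower in the same order. The part of these contents in this step was not tested either.

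**Figure D3:**
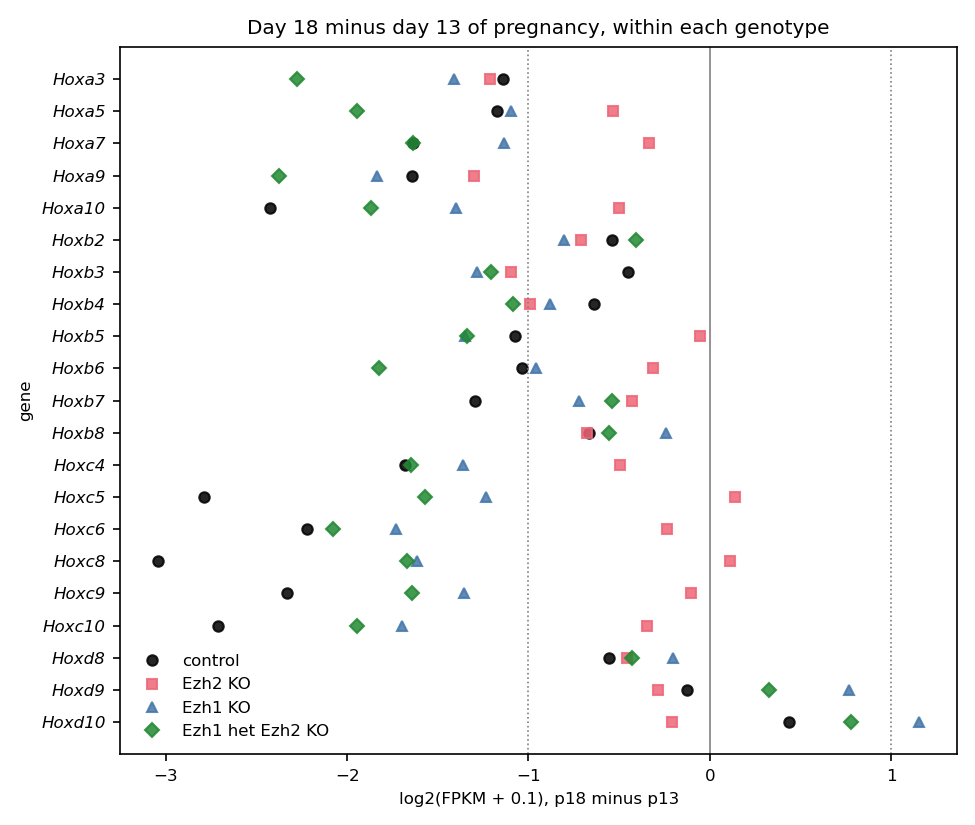
Difference p18 minus p13 in log2(FPKM + 0.1) for the 21 Hox genes with a mean of 1 FPKM or more, in each of the 4 genotypes, 1 point per gene and genotype and no error bars because each group has 1 value. Hoxc8 lies at -3.04 in control and above 0 in the Ezh2 knockout, while Hoxd8 lies between -0.56 and -0.20 in all 4.

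From virgin to p13 the genotypes also differed in their members called. In control tissue Hoxd10 was 1.85 higher and Hoxd9 1.12 higher, from 0.473 to 1.97 and from 2.92 to 6.47 FPKM, and Hoxb5 was 1.05 lower. These 2 higher and 1 lower of 21 compare with 11.7% higher and 3.48% lower of all genes. At a common upper quartile 1 member was higher and 3 were lower, and the shares of all genes at that scaling are not given. In the Ezh2 knockout 10 of 21 members were lower and 0 higher, against 11.4% and 14.1% of all genes. Its largest differences were Hoxc5 at -2.05 and Hoxc8 at -1.98, and 5 of 6 Hoxc, 4 of 5 Hoxa and 1 of 7 Hoxb genes were lower. The adipocyte marker sum was 41736 FPKM at p13 against 65042 in virgin control glands, and 16073 against 48434 in those of the Ezh2 knockout. The muscle marker sum was 10832 FPKM at p13 against 122 in virgin control glands, and 53.1 against 90.7 in those of the Ezh2 knockout. The sums of basal and of proliferation markers were higher at p13 in both genotypes. They were 4.92- and 18.3-fold higher in control and 4.13- and 9.90-fold higher in Ezh2 knockout tissue. The part of these contents in this step was not tested.

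Prolactin-treated virgin glands had lower levels of most of the 21 members than untreated ones in both genotypes. In control tissue 7 of 21 members were lower and 0 higher, against 3.06% and 6.22% of all genes: Hoxa9, Hoxa10, Hoxb5, Hoxc4, Hoxc5, Hoxc6 and Hoxc10. The Hox median was -0.80, with 19 of 21 below 0, and that of all genes 0. In the Ezh2 knockout 2 of 21 were lower and 0 higher, against 5.96% and 3.56% of all genes, a count near that share. The 2 were Hoxc5 and Hoxc6, both also among the 7 of the control. The Hox median of the Ezh2 knockout was -0.51, with 17 of 21 below 0, and that of all genes 0.01. Its Hoxb median was -0.09, with 3 of 7 genes above 0. Hoxc6 was 1.93 lower in control tissue (14.7 to 3.79 FPKM) and 1.78 lower in the Ezh2 knockout (16.5 to 4.73 FPKM). Hoxc5 was 1.38 and 1.44 lower. Hoxc8, its neighbour, was less than 1 lower in both, and the ratio of Hoxc6 to Hoxc8 went from 0.400 to 0.192 in control and from 0.542 to 0.179 in Ezh2 knockout tissue. In the 8 pregnant groups that ratio lay between 0.489 and 0.861. Across the 21 genes the differences of the 2 genotypes, which share no library, had a Pearson correlation of 0.81, against 0.09 over all 13104 genes. All 14 lymphocyte markers were called higher in control and lower in Ezh2 knockout tissue, and their part in the all-gene value was not tested.

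The adipocyte marker sum did not go down with prolactin: it was 65042 FPKM before and 70646 after in control, and 48434 and 78614 in Ezh2 knockout tissue. The fibroblast marker sum was 2602 and 1894 in control, and 2495 and 2327 in Ezh2 knockout tissue. The summed FPKM of 14 lymphocyte markers, read because the pad holds a lymph node that was to be removed, was 26.8 and 305 in control and 373 and 15.7 in Ezh2 knockout tissue, higher after prolactin in one genotype and lower in the other. The part of these sums in the Hox differences was not tested.

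**Figure D4:**
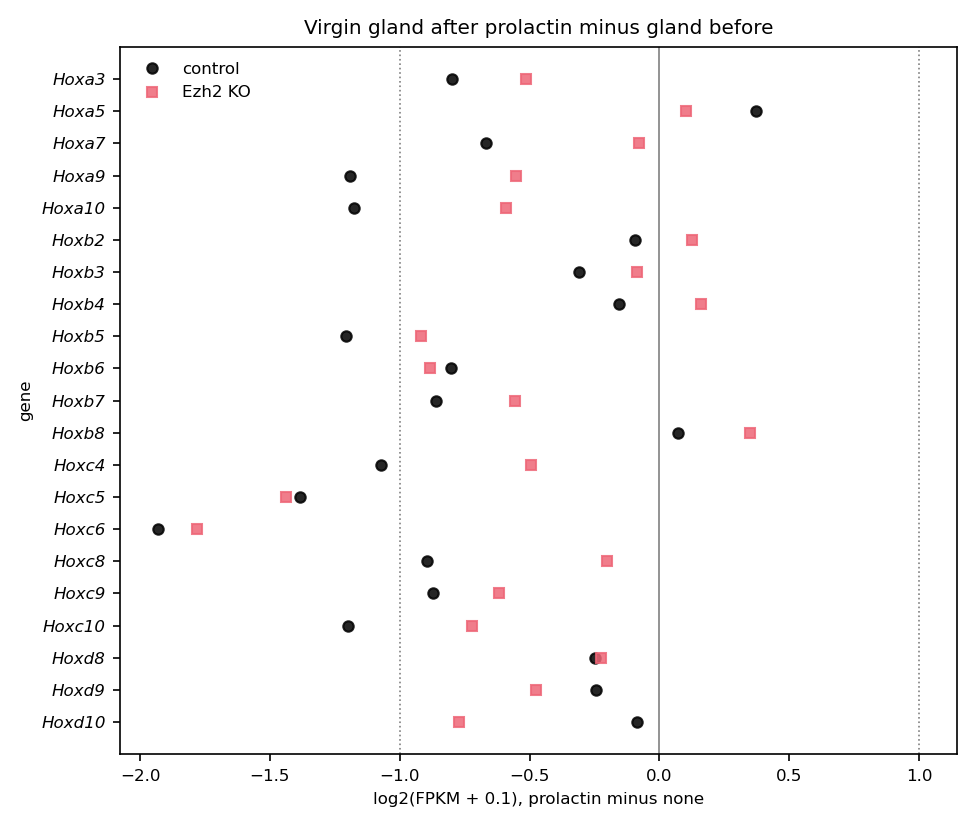
Difference with minus without prolactin in log2(FPKM + 0.1) for the 21 Hox genes, in control and Ezh2 knockout virgin glands, 1 point per gene. Hoxc6 lies lowest in both genotypes, at -1.93 and -1.78, and 17 of 21 genes lie below 0 in both.

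Ezh2 knockout tissue had lower Hoxc genes than control tissue at p13 and higher Hoxc genes at p18. At p13, 4 of 21 members were lower in Ezh2 knockout than in control tissue and 0 higher, against 8.08% and 3.87% of all genes. They were Hoxc8 (-1.28), Hoxc10 (-1.24), Hoxc5 (-1.13) and Hoxc9 (-1.08), and all 6 Hoxc genes were below 0. The median was -1.10 for Hoxc, -0.30 for Hoxa, -0.02 for Hoxb and -0.05 for Hoxd. At p18, 6 of 21 members were higher and 0 lower, against 4.02% and 3.07% of all genes: Hoxc8 (1.87, 3.77-fold), Hoxc5 (1.80), Hoxa10 (1.51), Hoxc6 (1.29), Hoxc9 (1.15) and Hoxc10 (1.13). The medians were 1.22 for Hoxc, 0.40 for Hoxa, 0.02 for Hoxb and -0.28 for Hoxd. The 2 stages share no library. Across the 21 genes, 15 had opposite signs at the 2 stages, with a Pearson correlation of -0.77, against -0.11 over all 13104 genes. The share of all genes with opposite signs is not given, so the count of 15 has no background here. The adipocyte marker sum had the same 2 directions: 41736 FPKM in control and 16073 in Ezh2 knockout tissue at p13, and 6952 and 16978 at p18. Other markers differed as well. At p13 the muscle sum was 10832 FPKM in control and 53.1 in Ezh2 knockout tissue, the erythroid sum 2063 and 346, and the milk protein sum 7.91-fold higher in the knockout. At p18 the erythroid sum was 54.3 in control and 1448 in Ezh2 knockout tissue, and the milk protein sum was 1.88-fold lower in the knockout. The part of these contents in the Hoxc differences was not tested.

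**Figure D5:**
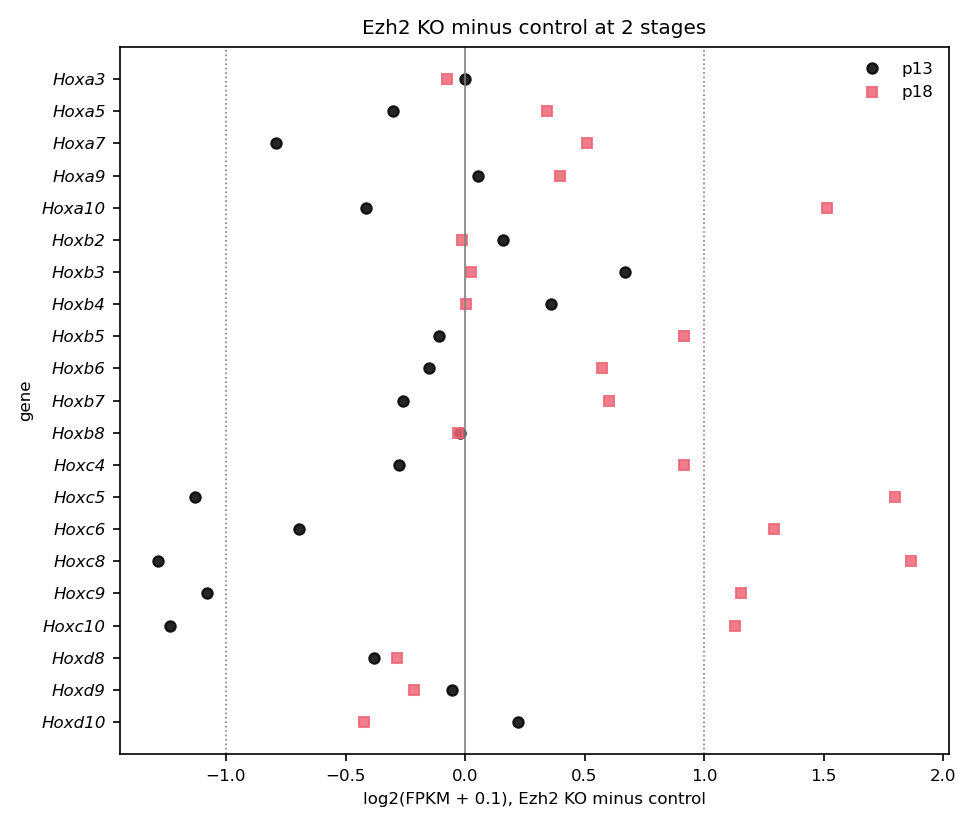
Difference Ezh2 knockout minus control in log2(FPKM + 0.1) at p13 and at p18 for the 21 Hox genes, 1 point per gene and stage. The 6 Hoxc genes lie below 0 at p13 and above 0 at p18.

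The genes of positions 11 to 13 stayed at or near 0 in each mutant group. Their 9 values summed to 0.158 FPKM in p13 control, 0.106 in p13 Ezh2 knockout, 0.117 in p13 Ezh1 knockout and 0.182 in p13 double mutant tissue. At p18 the sums were 0, 0.0356, 0.0283 and 0.00968. Since MMTV-Cre deletes Ezh2 in epithelium and the tissue is whole gland, these sums do not give the level in the cells that lost the gene. Ezh1 knockout tissue had few calls: at p13, 0 of 21 members were higher or lower, against 2.62% and 2.38% of all genes. At p18, Hoxc5 (1.12) and Hoxc8 (1.19) were higher and 0 lower, against 2.05% and 2.43%. In the double mutant 0 members were higher or lower at p13, against 4.57% and 3.40% of all genes, and at p18 Hoxc8 was higher by 1.06 and 0 were lower, against 2.22% and 3.55%. All 6 Hoxc genes were above 0 at p18 in both, with medians of 0.76 in the Ezh1 knockout and 0.56 in the double mutant. At p13, 4 of the 6 were below 0 in both, with medians of -0.15 and -0.16. These comparisons share their control libraries with those of the Ezh2 knockout.

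Against the Ezh2 knockout, the double mutant had Hoxc9 higher by 1.07 at p13 and 0 members lower, against 4.62% and 0.954% of all genes. At p18 it had Hoxa10 lower by 1.01 and 0 members higher, against 2.67% lower and 1.86% higher. In virgin glands the Ezh2 knockout had Hoxd10 higher by 1.12, 1.14 against 0.473 FPKM with 0 members lower, against 4.65% higher and 1.26% lower of all genes. After prolactin 0 members were higher or lower, against 1.19% and 3.46%, while all 21 were above 0, with a median of 0.31 against 0.01 for all genes.

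The genes that act with the clusters were taken as lists. Of the TALE homeodomain cofactors, which bind DNA together with Hox proteins (the Pbx, Meis and Pknox genes), 8 of 9 had a mean of 1 FPKM or more. From p13 to p18 in control tissue 5 of the 8 were lower and 0 higher (Meis1, Meis2, Meis3 and Pknox2 among them), against 26.1% lower and 4.40% higher of all genes, and their median was -1.21 against -0.54. The count of lower cofactors was 5 in the Ezh1 knockout, 3 in the double mutant and 2 in the Ezh2 knockout, against 20.9%, 26.9% and 10.7% of all genes. The 3 of 8 in the double mutant is near its background. In p13 Ezh2 knockout against control tissue, where 3.87% of all genes were higher and 8.08% lower, Meis2 and Pknox2 were lower and the other 6 were not called. Of 11 PRC2 subunits, 12 PRC1 subunits and 11 trithorax genes and H3K27 demethylases, 0 were called in that comparison. Of 16 measured protein-coding genes that flank the clusters, 0 were called there either. At p18, 0 of these 16 were called between Ezh2 knockout and control tissue, against 4.02% higher and 3.07% lower of all genes. For 16 genes that count of 0 is near these shares. Of the 13 measured developmental transcription factors outside the clusters, 4 were higher (Irx1, Irx2, Irx3 and Irx5) and 4 lower (Emx2, Lhx8 and Tbx15 among them) in p13 Ezh2 knockout tissue.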

How the data were processed

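RNA of whole mammary tissue was sequenced from TruSeq poly(A) libraries, per the labels' protocols. The authors deposited 1 table of FPKM values with 22552 genes and 1 column for each group of 2 or 3 libraries. That a column combines all libraries of its group is inferred from its name and is not stated. No SD, interval or test across libraries could be had, and the planned limma fit was not run. The submitters' processing notes name the aligners TopHat, Bowtie and BWA, then Cufflinks and Cuffdiff, the read tools CASAVA, FastQC and Trim Galore, HOMER, and the build mm9. Which of them served the RNA is not stated. The 9 chromatin immunoprecipitation libraries of the series were not analysed here. No column was left without a group. Of the members, 1 is counted but not reported by name here.

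From the deposited FPKM, differences of log2(FPKM + 0.1) were taken in 18 comparisons, over the 13104 genes with a mean of at least 1 FPKM, and called at 1 or more in size. The pseudocount of 0.1 was used because Hox levels are low. Genes that reached 5 FPKM are given in each group, others as ranges; up to 8 members are named per comparison and up to 4 genes per list; 3 of the developmental factors called at p13 were named after their values were seen. The members, the 18 gene and marker lists and the tests were chosen with earlier results of these data known. FPKM is a share of each library, so a rise of milk protein RNA lowers the value of other genes. Alternatives were 1 as pseudocount, other filters, 4 scalings and a threshold of 0.5. Scripts ran on Python 3.11.15, pandas 2.3.3, NumPy 2.4.6 and matplotlib 3.10.9, and the calls were tested on simulated data.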

Additional observations from a re-analysis of the deposited data

Results flagged for a closer look

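Of the Hox genes, 4 moved past the threshold in opposite directions between Ezh2 knockout and control tissue at the 2 stages of pregnancy. The log2 difference was -1.13 at p13 and 1.80 at p18 for Hoxc5, -1.28 and 1.87 for Hoxc8, -1.08 and 1.15 for Hoxc9, and -1.24 and 1.13 for Hoxc10. Each group has 1 value, so the difference between the stages was not tested.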

How the results depend on the processing

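No paired analysis was possible because the table holds 1 value per group, and for the same reason no library could be left out. Counts of called Hox genes are given here under each setting that moved them by over 1.5 times or turned their balance. The shares of all genes called under these settings are not given. With a pseudocount of 1 the counts of lower genes were 7 in control, 5 in Ezh1 knockout, 8 in double mutant and 0 in Ezh2 knockout tissue for p18 against p13, 4 for prolactin in control tissue and 2 for the Ezh2 knockout at p13. With that pseudocount 1 gene was higher in the Ezh2 knockout at p18 and 1 from virgin to p13 in control tissue, and 0 were called for the Ezh1 knockout or the double mutant against control at p18, for the double mutant against the Ezh2 knockout at either stage, and for the Ezh2 knockout in virgin glands. With a mean of 5 FPKM, which leaves 4 Hox genes, the counts were 3 for each of the control, Ezh1 knockout and double mutant stage steps, 3 for the Ezh2 knockout from virgin to p13 and at p18, 2 for prolactin in control tissue and for the Ezh2 knockout at p13, 1 for prolactin in the Ezh2 knockout and for the Ezh1 knockout at p18, and 0 for the other 5 that moved. Without a filter, the double mutant at p18 turned to 1 higher and 2 lower, and the counts were 6 for the stage step in the Ezh2 knockout, 2 for the double mutant against the Ezh2 knockout at p13 and at p18, and 1 for the Ezh2 knockout after prolactin. With 1 FPKM in any group they were 5 for that step, 2 for the double mutant at p18 against either genotype and 1 after prolactin.

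With a common sum, control p13 against virgin turned to 2 higher and 3 lower, 5 in all. The counts were 11 and 4 for prolactin in control and Ezh2 knockout tissue, 5 for the stage step in the Ezh2 knockout, 5 and 8 for the double mutant against the Ezh2 knockout at p13 and p18, and 1 and 0 for the Ezh1 knockout and the double mutant against control at p18. With a common sum without milk proteins they were 9 for the control stage step, 4 for prolactin in the Ezh2 knockout, 6 for the double mutant against the Ezh2 knockout at p18, and 1 and 0 for the Ezh1 knockout and the double mutant at p18. Leaving out muscle and erythroid genes too gave the same 5 counts, and 2 for the double mutant against the Ezh2 knockout at p13. With a common upper quartile, control p13 against virgin turned to 1 higher and 3 lower, 4 in all, and the counts were 9, 7 and 0 for the stage step in control, Ezh1 knockout and Ezh2 knockout tissue and 3 for the double mutant against the Ezh2 knockout at p18. These scalings moved the median of all genes by -0.78 to 0.50, the lowest value being that of the common sum for the stage step of the double mutant. The threshold of 0.5 and the scaling without muscle and erythroid genes were chosen after seeing the data. At 0.5, control p13 against virgin turned to 3 higher and 8 lower, 11 in all. The counts were 13 and 11 for prolactin in control and Ezh2 knockout tissue, 7 and 11 for the Ezh2 knockout at p13 and p18, 7 and 9 for the Ezh1 knockout, 5 and 7 for the double mutant, 13 and 11 for the double mutant against the Ezh2 knockout, 17 for the Ezh2 knockout from virgin to p13, 7 for its stage step, and 3 and 4 for the Ezh2 knockout in virgin glands without and with prolactin. At 1 FPKM in all 12 groups, 9 Hox genes were expressed in place of 25. Over 144 alternative medians of the Hox genes, 128 kept their direction.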

Other observations

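Mir196b and Mir10b, microRNA genes inside the clusters, were listed at 0 in most groups and above 0 in a few. Of the 22 names in the list of non-coding genes of the clusters, 9 were in the table. Mir196b, which lies in cluster Hoxa, stood at 132 FPKM in prolactin-treated control tissue, at 9.14 in p18 control, 9.19 in p13 Ezh2 knockout and 8.31 in p13 Ezh1 knockout tissue, and at 0 in the other 8 groups. Mir10b, in cluster Hoxd, stood at 9.30 in p13 and 36.8 in p18 Ezh2 knockout tissue and at 0 in the other 10. Of the 9 non-coding genes, 5 reached 1 FPKM in at least 1 group. In p13 double mutant tissue, where Mir196b and Mir10b stood at 0, the 9 summed to 6.70 FPKM. What these values count in poly(A) libraries was not tested.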
